A study of Mus musculus with 14 samples.

Results

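The 10 genes described here encode parts by which epidermal keratinocytes hold on to the matrix beneath them. Itga6 and Itgb4 are the laminin-binding integrin of the hemidesmosome, Plec and Dst are its plakin linkers, and Cd151 is its tetraspanin. Itga3, Itga2 and Itgb1 are subunits of the beta1 integrins, and Itgav and Itgb6 pair to an alpha-v integrin. The members were chosen by name, but with earlier results of these data known. The shares over all genes given beside them therefore describe the members and are no independent test. All 10 were found among the 27179 genes of the keratinocyte table, the 24411 genes of the epidermis table and the 23395 genes of both. All 10 passed the filter on low counts in each system, so none was lost to it.

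The p63beta mice carry KRT14-Cre with Trp63-Ex13fl/fl, so that Cre driven by the KRT14 promoter, which is active in basal keratinocytes, removes exon 13 of Trp63 and with it the alpha ending of the p63 protein. Their controls, p63alpha, are Trp63-Ex13fl/fl without Cre, so both genotypes carry the floxed allele. Keratinocytes came from newborn mice and were grown as primary cultures in low-calcium medium, with 3 p63beta and 3 p63alpha libraries. Epidermis of newborn mice gave 4 p63beta and 4 p63alpha libraries, named here by their columns: EP10, EP11, EP12 and KO2 for p63beta, and EP07, EP08, EP09 and WT3 for p63alpha. KO and WT in the epidermis columns were read as p63beta and p63alpha. The labels do not give an animal or culture for each library, so a p-value here speaks only of the spread among libraries, which may be technical.

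Hemidesmosomes are plaques on the basal face of basal keratinocytes. The alpha6beta4 integrin binds laminin-332 outside the cell, and plectin and the epithelial form of dystonin (BP230) tie its cytoplasmic side to the Krt5 and Krt14 filaments. Integrins of the beta1 and alpha-v families instead reach actin through talin, kindlin and paxillin at focal adhesions, and alpha-v beta6 is also known for activating latent TGF-beta. Several of these genes are known p63 targets in keratinocytes, and cells lose most of them as they leave the basal layer.

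The keratinocyte libraries hold 20688027 to 30066041 read pairs on genes, and the epidermis libraries 21290068 to 44909629 estimated counts. Levels are given in CPM, the share of a library's scaled total, and each log2 fold change divides p63beta by p63alpha and comes with its standard error (SE). Called means that the adjusted p of edgeR's quasi-likelihood test (Benjamini-Hochberg, over every gene tested) was under 0.05. The count of Trp63, the targeted gene, was 364 ± 24.2 CPM in p63beta keratinocytes and 183 ± 8.14 CPM in p63alpha keratinocytes (SD, n = 3 each), which is 0.99 ± 0.09 (SE) in log2 fold change with an adjusted p of 0.0297 in edgeR, a call that was lost when any 1 library was left out. A count over the whole gene cannot tell the alpha from the beta ending, so it does not check the labels. Of the basal keratinocyte markers, Krt5 and Krt14 were high and Krt15 was near 0 (0.808 to 6.19 CPM) in all 6 cultures, and with Trp63 they summed to 20464 to 27934 CPM in p63beta and 20233 to 32411 CPM in p63alpha keratinocytes. One culture stood apart: p63beta library 3 held 2988 CPM of 8 heart muscle markers, against 103 to 205 CPM in the other 5 keratinocyte libraries. Of these markers only Myl7 did not stand apart, at 46.1 CPM there, against 35.3 to 58.4 CPM in the other 5. The 4 pericyte and smooth muscle markers summed to 173 CPM in p63beta library 3, against 2.97 to 11.3 CPM, and most of that was Des (157 CPM). Rgs5, Pdgfrb and Myh11 were also highest there, but at only 7.24, 4.06 and 4.55 CPM. Suprabasal markers (Krt1, Krt10, Lor, Ivl and Flg), which keratinocytes switch on as they leave the basal layer, summed to 171, 91.5 and 103 CPM in p63beta libraries 1, 2 and 3, against 91.0, 42.0 and 37.3 CPM in p63alpha libraries 1, 2 and 3, without overlap. Most of each p63beta sum was Ivl (involucrin), at 132, 78.8 and 92.9 CPM in p63beta, against 63.6, 22.03 and 24.1 CPM in p63alpha. Ivl alone of the 5 markers was higher in p63beta without overlap, as 6.51% of all genes tested were. Krt1, Krt10, Lor and Flg overlapped. Each was higher in p63beta than in p63alpha between libraries 1, and lower in p63beta between libraries 2 and between libraries 3. What part these marker differences have in the values of the 10 genes was not tested. Fibroblast markers (6 genes) also had their highest sum in p63beta library 3, at 213 CPM, against 37.8 to 164 CPM in the other 5. Among them only Col1a1 was highest elsewhere, at 131 CPM in p63alpha library 3, against 76.3 CPM in p63beta library 3. Melanocyte markers (5 genes) summed to 783 to 965 CPM in p63beta and 409 to 1541 CPM in p63alpha.

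In keratinocytes, all 10 genes had a positive log2 fold change, where 49.7% of the 13820 genes tested did. Their median was 0.30, and that of all genes tested was -0.00. None of the 10 was called in edgeR, where 14 genes were called in all (0.101%). Itga2 had the largest log2 fold change but the least even libraries, and Plec, Itga3 and Itga6 were the 3 members whose p63beta libraries all lay above all p63alpha libraries, as 6.51% of genes tested did. The same 3 had an unadjusted edgeR p under 0.05, as 6.85% of genes tested did. In the authors' deposited table, Plec and Itga3 were called with adjusted p-values of 0.00330 and 0.0153, and that table called 1.5% of its genes. In DESeq2 with the replicate number as a block, a setting added after the data were seen, Plec, Itga3 and Itga6 were called, and so were 4.06% of genes.

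**Figure D1:**
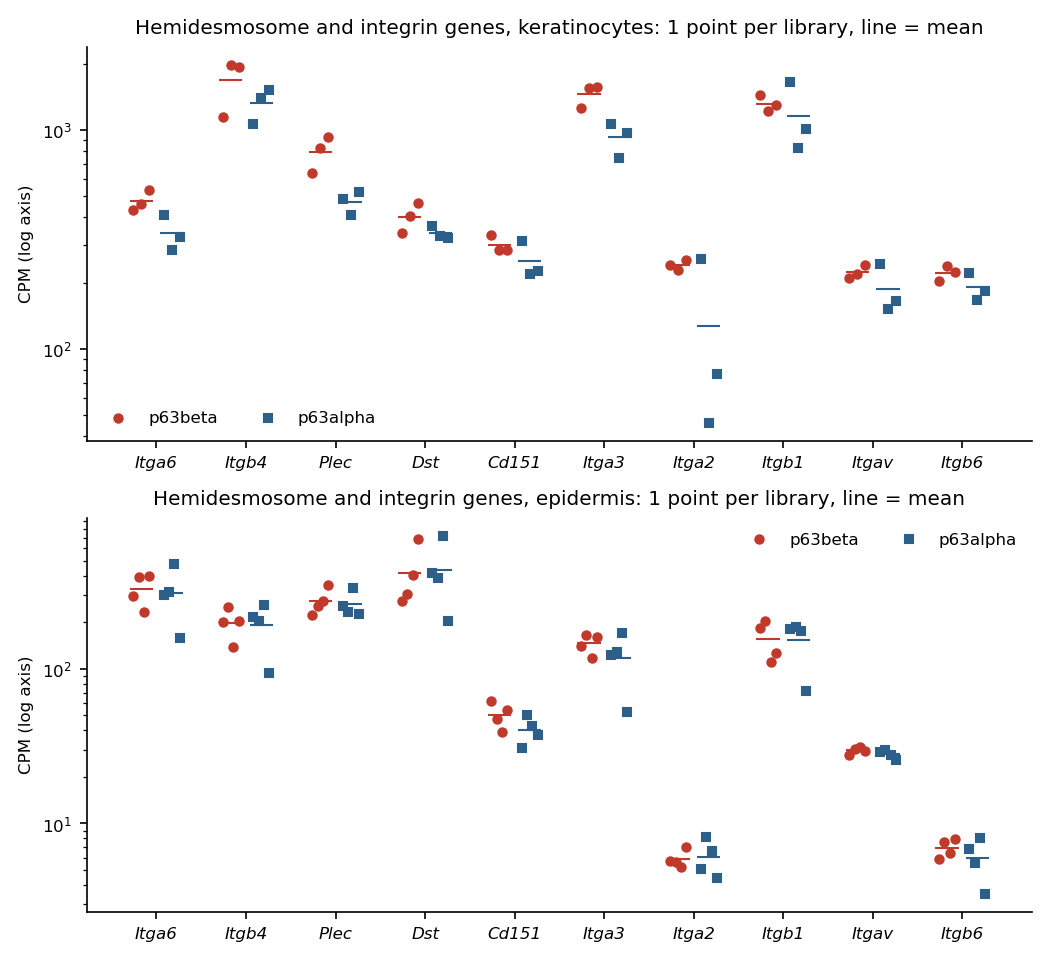
CPM (log axis) of the 10 genes in keratinocytes (top) and epidermis (bottom), 1 point per library with the group mean as a line, p63beta left of p63alpha for each gene. In keratinocytes the points of Plec, Itga3 and Itga6 do not overlap, and in epidermis every gene overlaps, with 1 low p63alpha library, WT3, for most genes.

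Itga6 (chromosome 2, 71786886 to 71858427, GRCm38) encodes the alpha subunit of the laminin receptor. It stood at 430.3, 462 and 535 CPM in p63beta keratinocyte libraries 1, 2 and 3, against 411, 285 and 326 CPM in p63alpha libraries 1, 2 and 3. The groups did not overlap, but p63alpha library 1 lay close under the lowest p63beta library. Its log2 fold change was 0.48 ± 0.16 (SE), with an adjusted p of 0.612 in edgeR. In epidermis its values were 296, 393, 232 and 399 CPM in EP10, EP11, EP12 and KO2 of p63beta, against 298, 315, 474 and 158 CPM in EP07, EP08, EP09 and WT3 of p63alpha. Here the highest and the lowest value were both p63alpha, and the log2 fold change was 0.09 ± 0.31 (SE, adjusted p = 0.9999 in edgeR).

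The alpha6 chain ends in one of 2 cytoplasmic tails made by choice of the last coding exon, and in epidermis the transcript table separates them. The alpha6A transcript NM_008397 (1073 residues) made up 89.5% ± 3.56 of the TPM (a share of all transcripts, corrected for length) of Itga6 in p63beta and 89.1% ± 7.72 in p63alpha epidermis (SD, n = 4 each). The alpha6B transcript NM_001277970 (1091 residues) took the remaining 10.5% and 10.9%. The share of alpha6A ranged from 85.5% to 92.6% in p63beta and from 78.6% to 95.2% in p63alpha, so the groups overlapped. The coding bases that tell these tails apart are shown with the A tail of Itga3, in lower case, with capitals at those of the first 18 bases that are the same in all 3 tails (13 of 18). They lie at chr2:71853534-71853638 (plus strand) for alpha6A, chr2:71855854-71856012 (plus strand) for alpha6B and chr11:95046483-95046590 (minus strand) for alpha3A, all GRCm38 from the GENCODE transcripts.
alpha6A: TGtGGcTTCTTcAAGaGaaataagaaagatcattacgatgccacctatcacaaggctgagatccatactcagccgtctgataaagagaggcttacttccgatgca
alpha6B: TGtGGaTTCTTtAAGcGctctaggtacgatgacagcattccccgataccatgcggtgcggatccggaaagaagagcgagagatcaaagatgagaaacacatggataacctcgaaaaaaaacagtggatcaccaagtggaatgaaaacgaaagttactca
alpha3A: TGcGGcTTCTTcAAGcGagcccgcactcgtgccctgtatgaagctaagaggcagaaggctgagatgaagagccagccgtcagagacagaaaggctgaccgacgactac
Past this shared start, which codes for the stretch next to the membrane, the alpha6A and alpha6B exons differ in most positions. Over all 105 bases of alpha6A, the shared start included, 47 match alpha6B without gaps.

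Itgb4 (chromosome 11, 115974725 to 116008412) encodes the beta subunit, whose long cytoplasmic part binds plectin. Keratinocyte values were 1148, 1981 and 1949 CPM in p63beta libraries 1, 2 and 3, against 1069.9, 1402 and 1526 CPM in p63alpha libraries 1, 2 and 3. Libraries numbered 1 were the lowest of each genotype, and the groups overlapped through p63beta library 1. The log2 fold change was 0.35 ± 0.25 (SE), with an adjusted p of 0.895 in edgeR. In epidermis p63beta libraries EP10, EP11, EP12 and KO2 had 199, 249, 139 and 205 CPM, against 217, 203, 258 and 93.6 CPM in p63alpha libraries EP07, EP08, EP09 and WT3, and the log2 fold change was 0.04 ± 0.29 (SE, adjusted p = 0.9999 in edgeR). The shorter transcript NM_133663 made up 97.96% of Itgb4 TPM in p63beta and 98.6% in p63alpha epidermis.

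Plec (chromosome 15, 76170974 to 76231378) encodes plectin, which links the integrin to keratin filaments. It had 636, 828 and 929 CPM in p63beta keratinocyte libraries 1, 2 and 3, against 484, 408 and 521 CPM in p63alpha libraries 1, 2 and 3. Every p63beta library was above every p63alpha library, and the means were 798 ± 149 CPM in p63beta and 471 ± 57.2 CPM in p63alpha (SD, n = 3 each). Its log2 fold change of 0.76 ± 0.17 (SE) had an adjusted p of 0.381 in edgeR, against 0.00241 in DESeq2 on the same counts, which called 1.63% of its genes. In epidermis Plec had 224, 254, 274 and 346 CPM in EP10, EP11, EP12 and KO2 of p63beta, against 254, 232, 332 and 225 CPM in EP07, EP08, EP09 and WT3 of p63alpha. These ranges nearly coincide, and the log2 fold change was 0.07 ± 0.19 (SE, 95% interval -0.34 to 0.49). Plec has 15 transcripts in the table that share most of their length and differ in the first exon. Those with a mean share of at least 5% were NM_201394 (43.4% ± 16.6 of TPM in p63beta, 31.6% ± 10.1 in p63alpha), NM_011117 (33.1% ± 7.31 and 36.7% ± 7.88 in the same order) and NM_201392 (14.1% ± 19.8 and 13.1% ± 14.1). The last was listed at 0 in EP11, EP12 and EP08 and reached 42.0% in EP10, a spread within p63beta far wider than the difference of the means.

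Dst (chromosome 1, 33907888 to 34308662) encodes dystonin, whose short epithelial product BP230 sits in the inner hemidesmosome plaque, while longer products serve nerve and muscle. It had 339, 405 and 462 CPM in p63beta keratinocyte libraries 1, 2 and 3, against 365, 329 and 321 CPM in p63alpha libraries 1, 2 and 3. p63beta library 1 lay below p63alpha library 1, and the log2 fold change was 0.25 ± 0.13 (SE), with an adjusted p of 0.804 in edgeR. In epidermis Dst had 275, 303, 407 and 686 CPM in EP10, EP11, EP12 and KO2 of p63beta, against 417, 389, 723 and 202 CPM in EP07, EP08, EP09 and WT3 of p63alpha. It had the widest spread of the 10 genes there in CPM, with EP09 more than 3 times WT3 within p63alpha, and the log2 fold change was -0.05 ± 0.39 (SE, 95% interval -0.91 to 0.81).

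The epithelial transcript NM_010081 (24 exons, 2639 residues) made up 92.4% ± 4.23 of Dst TPM in p63beta and 90.7% ± 4.61 in p63alpha epidermis (SD, n = 4 each), and NM_133833 (93 exons, 5379 residues) made up 6.29% ± 3.64 and 7.79% ± 4.002 in the same order. The start of the epithelial transcript lies inside the gene. The 250 bases before it and before another annotated start that lies upstream are given from RefSeq (GRCm38.p6, plus strand, chr1:34160010-34160259 and chr1:34011345-34011594), in lower case with CpG pairs in capitals, since these are the 2 Dst starts in the promoter table and most Dst reads were assigned to the epithelial transcript.
Dst, epithelial start: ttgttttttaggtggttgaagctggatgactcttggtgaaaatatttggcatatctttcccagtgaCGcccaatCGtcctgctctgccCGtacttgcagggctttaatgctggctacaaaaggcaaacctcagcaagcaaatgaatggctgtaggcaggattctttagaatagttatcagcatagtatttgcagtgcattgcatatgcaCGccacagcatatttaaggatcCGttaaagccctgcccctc
Dst, upstream start: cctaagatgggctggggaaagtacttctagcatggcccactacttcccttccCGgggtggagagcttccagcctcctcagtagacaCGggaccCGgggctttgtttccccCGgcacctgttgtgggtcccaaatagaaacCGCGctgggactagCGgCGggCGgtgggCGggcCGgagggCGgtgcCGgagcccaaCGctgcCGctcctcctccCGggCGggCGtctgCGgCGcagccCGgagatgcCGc
The window of the epithelial start holds 5 CpG pairs and 45.2% G and C, and that of the upstream start 22 and 68.8%, where the median of all 32851 windows is 6 CpG pairs and 52.4%. Of the 10 genes, 7 have a window in that table (11 windows in all). The AP-1 letters TGANTCA were in 0 of the 11, and in 6.75% of all windows. The TEAD letters GGAATG were in 1 (Itgb1), and in 12.6% of all windows, and a p53 family half-site was in 1 (Cd151), and in 7.13% of all windows, each searched on both strands.

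Cd151 (chromosome 7, 141467362 to 141471481) encodes the tetraspanin that binds alpha3beta1 and alpha6beta4. It had 331, 283 and 285 CPM in p63beta keratinocyte libraries 1, 2 and 3, against 312, 219 and 228 CPM in p63alpha libraries 1, 2 and 3. Library 1 was the highest of each genotype, and p63beta was higher within each replicate number. The log2 fold change was 0.24 ± 0.16 (SE), with an adjusted p of 0.868 in edgeR. In epidermis Cd151 had the largest log2 fold change of the 10 genes, 0.33 ± 0.20 (SE, adjusted p = 0.9999 in edgeR). Its values were 61.6, 47.2, 39.0 and 54.5 CPM in EP10, EP11, EP12 and KO2 of p63beta, against 30.7, 49.95, 42.7 and 37.1 CPM in EP07, EP08, EP09 and WT3 of p63alpha, and the groups overlapped.

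A minor Cd151 transcript, NM_001111050, which starts downstream of the others at position 141468822, was singled out after its values were seen. It had 1.48, 2.60, 2.47 and 0.433 TPM in EP10, EP11, EP12 and KO2 of p63beta, against 0.214 TPM in WT3 of p63alpha, and was listed at 0 in EP07, EP08 and EP09. The p63beta libraries were all above the p63alpha libraries, as in 1.02% of the 18270 transcripts tested. It was not called (adjusted p = 0.9997 in edgeR, 0.192 in DESeq2), and it made up 1.02% to 6.60% of Cd151 TPM in p63beta. The 250 bases before the nearest RefSeq start (GRCm38.p6, plus strand, chr7:141468539-141468788) are shown for it, with CpG pairs in capitals.
Cd151, downstream start: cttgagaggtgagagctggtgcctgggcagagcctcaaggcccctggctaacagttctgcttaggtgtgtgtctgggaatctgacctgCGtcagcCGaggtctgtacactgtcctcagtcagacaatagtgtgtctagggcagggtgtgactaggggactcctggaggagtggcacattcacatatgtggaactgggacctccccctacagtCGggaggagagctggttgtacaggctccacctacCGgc
This window holds 4 CpG pairs. The main Cd151 transcripts, NM_001111049 and NM_009842, encode the same number of residues (253) and made up 63.7% ± 3.40 and 32.3% ± 4.07 of Cd151 TPM in p63beta, against 72.2% ± 12.98 and 27.6% ± 12.7 in p63alpha. For the 9 transcripts compared by share, in Itga6, Plec, Dst and Cd151, the lowest adjusted p of the two-sided exact permutation test over 70 splits was 0.857. None of the 23 member transcripts tested in the transcript fit was called by edgeR or DESeq2, where edgeR called 0.0547% of all transcripts and DESeq2 0.617%.

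**Figure D2:**
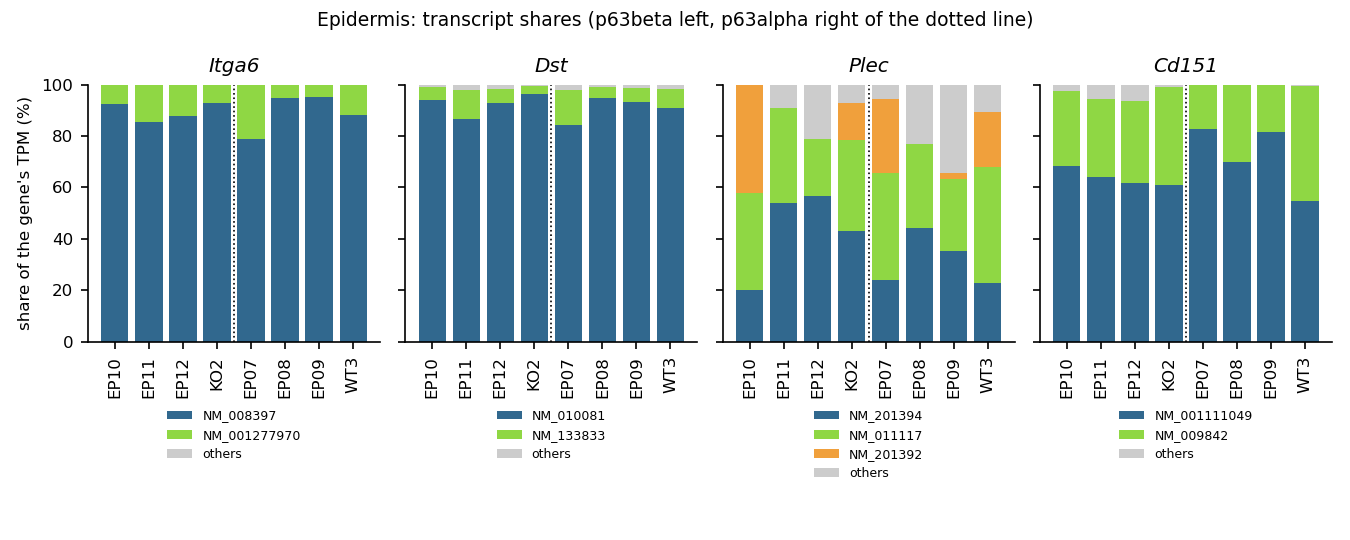
Share of each gene's TPM (percent) taken by its main transcripts in the 8 epidermis libraries, p63beta left and p63alpha right of the dotted line, with all other transcripts in grey. One transcript dominates Itga6 and Dst in every library, and the Plec transcripts change places from library to library within each genotype.

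Itga3 (chromosome 11, 95044475 to 95076844) encodes the alpha subunit of alpha3beta1, a laminin-332 receptor outside hemidesmosomes. It had 1259.9, 1549.7 and 1577 CPM in p63beta keratinocyte libraries 1, 2 and 3, against 1062, 743 and 971 CPM in p63alpha libraries 1, 2 and 3. The groups were apart, with means of 1462 ± 176 CPM in p63beta and 925 ± 165 CPM in p63alpha (SD, n = 3 each). Its log2 fold change was 0.66 ± 0.17 (SE), with an adjusted p of 0.448 in edgeR and 0.0122 in DESeq2. Epidermis gave 139.8, 166, 117 and 162 CPM in EP10, EP11, EP12 and KO2 of p63beta, against 122, 128, 169 and 52.2 CPM in EP07, EP08, EP09 and WT3 of p63alpha, with a log2 fold change of 0.31 ± 0.30 (SE, adjusted p = 0.9999 in edgeR). That value was 0.06 ± 0.18 without WT3, 0.54 ± 0.30 without EP09 and 0.0084 ± 0.20 over the EP libraries (SE). The alpha3A transcript NM_013565 (1053 residues) made up 94.3% of Itga3 TPM in p63beta and 95.9% in p63alpha epidermis.

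Itga2 (chromosome 13, 114833081 to 114932100) encodes the alpha subunit of the collagen receptor alpha2beta1. It had the largest and least even log2 fold change of the 10 genes in keratinocytes, 0.93 ± 0.61 (SE, 95% interval -0.55 to 2.41), with an adjusted p of 0.872 in edgeR. The p63beta libraries 1, 2 and 3 were close together at 242, 231 and 255 CPM, against 259, 45.9 and 76.8 CPM in p63alpha libraries 1, 2 and 3. p63alpha library 1 thus stood with the p63beta libraries and the other p63alpha libraries stood far below. In epidermis Itga2 was low, at 5.74, 5.62, 5.23 and 7.03 CPM in EP10, EP11, EP12 and KO2 of p63beta, against 5.06, 8.16, 6.62 and 4.44 CPM in EP07, EP08, EP09 and WT3 of p63alpha, with a log2 fold change of -0.04 ± 0.26 (SE).

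Itgb1 (chromosome 8, 128685654 to 128733579) encodes the beta1 subunit shared by both of these receptors. It had 1439, 1221 and 1303 CPM in p63beta keratinocyte libraries 1, 2 and 3, against 1652, 824 and 1013 CPM in p63alpha libraries 1, 2 and 3, so the highest and the lowest value were both p63alpha. The log2 fold change was 0.18 ± 0.26 (SE), with an adjusted p of 0.963 in edgeR. In epidermis it had 184, 205, 110.3 and 126 CPM in EP10, EP11, EP12 and KO2 of p63beta, against 182, 185, 176 and 72.0 CPM in EP07, EP08, EP09 and WT3 of p63alpha, with a log2 fold change of 0.02 ± 0.31 (SE).

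Itgav and Itgb6 (chromosome 2, 83722303 to 83806917 and 60598292 to 60722603) encode the subunits of alpha-v beta6. Itgav had 212, 219.7 and 243 CPM in p63beta keratinocyte libraries 1, 2 and 3, against 245, 152 and 166 CPM in p63alpha libraries 1, 2 and 3 (log2 fold change 0.26 ± 0.19, SE). Itgb6 had 205, 239 and 225 CPM in p63beta libraries 1, 2 and 3, against 222, 167 and 185 CPM in p63alpha libraries 1, 2 and 3 (log2 fold change 0.22 ± 0.13, SE). For both, p63alpha library 1 lay above p63beta library 1, and neither was called in edgeR (adjusted p = 0.898 for Itgav and 0.825 for Itgb6). In epidermis Itgav was the steadiest of the 10 genes, at 29.7 ± 1.37 CPM in p63beta and 28.1 ± 1.73 CPM in p63alpha (SD, n = 4 each), with a log2 fold change of 0.08 ± 0.14 (SE). Epidermal Itgb6 had 6.95 ± 0.984 CPM in p63beta and 5.98 ± 1.97 CPM in p63alpha (SD, n = 4 each), with a log2 fold change of 0.22 ± 0.29 (SE).

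**Figure D3:**
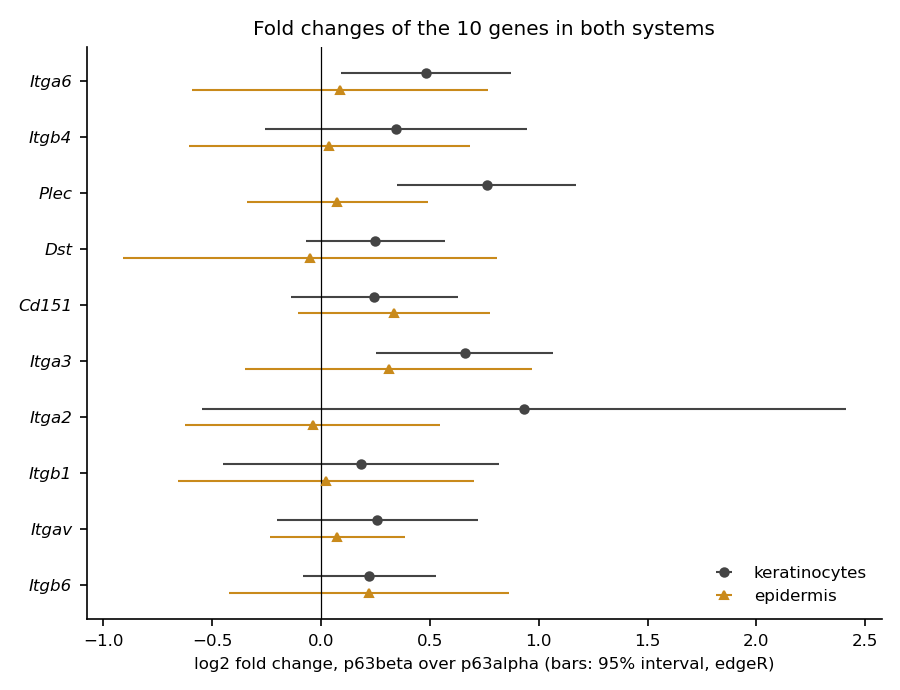
Log2 fold changes, p63beta over p63alpha, of the 10 genes in keratinocytes (circles) and epidermis (triangles), with 95% intervals from the edgeR fit. In keratinocytes the intervals of Itga6, Plec and Itga3 lie above 0 before adjustment over all genes, and in epidermis every interval spans 0.

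Over all genes, keratinocyte libraries numbered 1 deviated together (Pearson's r 0.579), and so did those numbered 2 (0.495). Those numbered 3 (0.161) did so no more than libraries of different numbers (up to 0.164). The 10 genes differed sharply between replicate numbers. Within number 1, log2 ratios of p63beta over p63alpha ran from -0.21 (Itgav) to 0.40 (Plec), and 5 genes were higher and 5 lower. Within number 2 they ran from 0.30 (Dst) to 2.33 (Itga2), and within number 3 from 0.28 (Itgb6) to 1.73 (Itga2), with all 10 genes higher in each. Itga6, Itgb4, Plec, Cd151 and Itga3 were higher in p63beta within all 3 numbers, as 17.5% of genes tested were. With the replicate number as a block, edgeR called 37 genes in all (0.268%) and again none of the 10, the lowest adjusted p being 0.144 for Plec. The libraries numbered 1 also differed in markers: their sums of basal markers were 20464 CPM in p63beta and 20233 CPM in p63alpha, against 27512 and 27934 CPM in the other p63beta and 32411 and 28617 CPM in the other p63alpha libraries. Krt5 and Krt14 set this order, and the other basal markers did not share it. Krt15, low in all cultures, was highest in the libraries numbered 1 of both genotypes. Trp63 was highest of p63alpha in library 1 (193 CPM), but lowest of p63beta in library 1 (343 CPM). What part these marker differences have in the ratios was not tested.

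The block fit without number 1 called 5 of the 10 genes: Plec (adjusted p = 0.0145 in edgeR), Itga6 (0.0163), Itgav (0.0252), Itga3 (0.0295) and Itga2 (0.0398). That fit had 2 libraries per genotype and called 585 genes, 4.22% of those tested. The median log2 fold change of the 10 genes in it was 0.50. Leaving out p63alpha library 1 alone, without a block, gave a median of 0.49 and called none, and the log2 fold change of Itga2 was then 1.97 ± 0.24 (SE, adjusted p = 0.0912 in edgeR). Leaving out p63beta library 3, which stood apart in heart muscle markers and Des, gave a median of 0.25 with all 10 genes still positive. Plec was then at 0.63 ± 0.18, Itga3 at 0.59 ± 0.20 and Itga6 at 0.38 ± 0.17 (log2 fold change, SE).

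**Figure D4:**
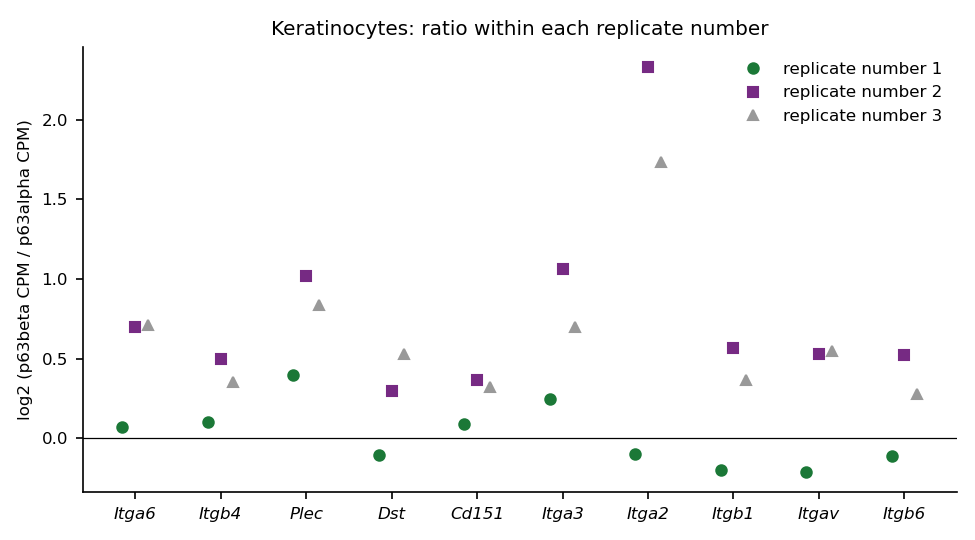
Log2 ratio of p63beta CPM over p63alpha CPM within each replicate number in keratinocytes for the 10 genes. The circles of number 1 lie between -0.21 and 0.40, below those of numbers 2 and 3 for every gene.

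In epidermis, 8 of the 10 genes had a positive log2 fold change, where 49.3% of the 13796 genes tested did. Their median was 0.07, and that of all genes tested was -0.00. None was called in edgeR, where 32 genes were called in all (0.232%), and none was called in DESeq2 (1.03% of genes) or in the authors' deposited table (0.896%). No member had groups without overlap, where 1.88% of genes were higher and 1.18% lower in p63beta in that way. In tissue libraries, fewer cells of a type and less RNA per cell cannot be told apart. WT3 was the lowest of the 8 libraries for 8 of the 10 genes and the second lowest for Plec and Cd151, where it was lowest for 17.4% of all genes tested. On the log2 scale, centred on each gene's mean over 8 libraries, the 10 genes averaged -0.71 in WT3, against 0.34 in EP09, the p63alpha library with the highest average. The markers of suprabasal cells (Krt1, Krt10, Lor and Ivl) summed to 160122 CPM in WT3, the highest of the 8 libraries, and to 81592 CPM in EP09, the lowest, against 108085 to 139669 CPM in the other 6. Each of these markers was lowest in EP09, and Krt1, Krt10 and Ivl were highest in WT3. Lor was not, at 9715 CPM in WT3, against 10619 CPM in EP12 and 15793 CPM in KO2. The sum of the basal markers Krt5, Krt14, Krt15 and Trp63 was lowest in EP12 of p63beta (7239 CPM) and WT3 (8516 CPM), against 11871 to 18031 CPM in the other 6. Krt5 and Krt14 set this order, and the other basal markers did not share it. Krt15 was at 1331 CPM in EP12 and 1971 CPM in WT3, against 427 to 2324 CPM in the other 6. Trp63 was highest of all in EP12 (764 CPM) and lowest in WT3 (259 CPM). What part the balance of layers has in these values was not tested.

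**Figure D5:**
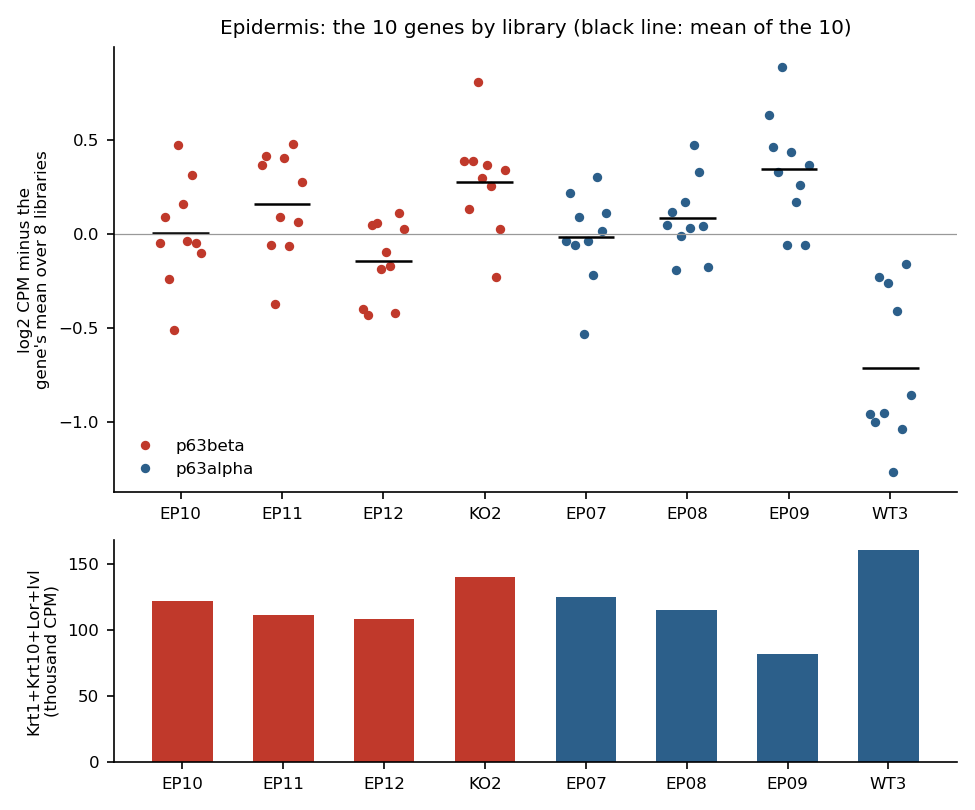
Top, log2 CPM of the 10 genes in each epidermis library minus the gene's mean over the 8 libraries, with the mean of the 10 as a black line, and below it the summed CPM of Krt1, Krt10, Lor and Ivl. WT3 has the lowest mean of the 10 genes (-0.71) and the highest sum, and EP09 the highest mean (0.34) and the lowest sum.

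Without WT3, 5 of the 10 log2 fold changes in epidermis were positive and the median was -0.06. Over the 6 libraries with EP column names, which share a header series, 3 were positive, the median was -0.13 and none was called, as 0.058% of genes were. KO2 and WT3, the pair of the other header series, had log2 ratios from 0.18 (Itgav) to 1.76 (Dst), all positive. The 2 header series thus pointed opposite ways for 7 genes, and for Dst the log2 value was -0.64 ± 0.28 (SE) over the EP libraries and 1.76 for KO2 over WT3.

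The difference between the systems was tested with an interaction term over all 14 libraries. The effect in epidermis minus that in keratinocytes was negative for 8 of the 10 genes, with a median of -0.28. For Plec it was -0.67 ± 0.27 (SE, 95% interval -1.26 to -0.08, unadjusted p = 0.0280, adjusted p = 0.9999 in edgeR), and for Itga2 it was -0.95 ± 0.61 (SE). None was called, and edgeR called 0.0% of 14741 genes (618 at an unadjusted p under 0.05), while DESeq2 called 12 (0.0933%), none of them a member. The 95% interval of the difference spanned 0 for 9 of the 10 genes, Plec being the exception before adjustment. With the replicate number of the keratinocyte libraries as a block, edgeR again called none of the 10 and the median was -0.26.

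The order of the levels differed between the systems. In p63alpha keratinocytes, in FPKM (fragments scaled by gene length and library total), Itgb1 was highest at 277 ± 99.3, before Itgb4 at 217 ± 41.5 and Itga3 at 191 ± 33.0 (SD, n = 3 each), and these neighbours overlapped. Cd151 (126 ± 23.5 FPKM) and Itga6 (81.0 ± 14.3 FPKM) followed without overlap. Itgb6, Itga2, Plec and Itgav, at means of 26.6 to 37.5 FPKM, each overlapped with the next in this order. Dst had the lowest mean, at 14.6 ± 0.789 FPKM, below every Itgav value but within the wide range of Itga2 (10.9 to 60.5 FPKM), where the length used is that of all Dst exons together rather than of the shorter epithelial transcript. In p63alpha epidermis, in TPM, Itga6 was highest at 90.1 ± 44.8 (SD, n = 4), and each of Dst, Itgb1, Itgb4, Itga3, Cd151 and Plec overlapped with its neighbour down to 29.1 ± 8.12 TPM. Itgav (6.71 ± 1.10 TPM) stood apart from both neighbours, and Itga2 (2.51 ± 0.934 TPM) and Itgb6 (2.17 ± 0.874 TPM) overlapped. FPKM and TPM come from different counting methods, so levels are compared within a system only.

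Ratios of partner subunits per length were computed after values were seen, for 4 pairs in each system. Itga6 over Itgb4 was 0.432 ± 0.107 in p63beta and 0.391 ± 0.149 in p63alpha keratinocytes (SD, n = 3 each), and 1.67 ± 0.200 in p63beta and 1.61 ± 0.194 in p63alpha epidermis (SD, n = 4 each). Itga3 over Itgb1 was 0.967 ± 0.184 in p63beta and 0.721 ± 0.145 in p63alpha keratinocytes, and 0.842 ± 0.209 in p63beta and 0.655 ± 0.115 in p63alpha epidermis. Itga2 over Itgb1 was 0.183 ± 0.0144 in p63beta and 0.0956 ± 0.0533 in p63alpha keratinocytes, without overlap, at a two-sided exact permutation p of 0.1 (the smallest that 3 against 3 allows) and 0.4 after adjustment over the 4 pairs. Itgav over Itgb6 was 0.732 ± 0.0607 in p63beta and 0.703 ± 0.0841 in p63alpha keratinocytes. In epidermis Itga2 over Itgb1 was 0.0402 ± 0.0133 in p63beta and 0.0425 ± 0.0142 in p63alpha, and Itgav over Itgb6 was 2.90 ± 0.387 in p63beta and 3.44 ± 1.16 in p63alpha. None of the 4 pairs passed the test in epidermis (lowest adjusted exact permutation p = 0.686).

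Partners of the hemidesmosome and other genes of integrin adhesion were taken from 6 lists with 92 genes, also chosen with earlier results of these data known. In keratinocytes, 85 were tested, 54 had a positive log2 fold change and none was called in edgeR without a block. Among the 7 hemidesmosome partners, 4 were positive with a median of 0.11. Lama3 and Lamb3, which encode chains of laminin-332, the ligand of both alpha6beta4 and alpha3beta1, were without overlap: Lama3 had 1237 ± 94.2 CPM in p63beta and 748 ± 274 CPM in p63alpha, and Lamb3 had 916 ± 57.0 CPM in p63beta and 518 ± 170 CPM in p63alpha (SD, n = 3 each). Their log2 fold changes were 0.73 ± 0.25 and 0.82 ± 0.23 (SE), with adjusted p-values of 0.643 and 0.523 in edgeR. For Col17a1, the transmembrane collagen BP180, the log2 fold change was 0.50 ± 0.28 (SE). The keratins anchored at the plaque had log2 fold changes of -0.07 ± 0.24 (Krt5) and -0.18 ± 0.20 (Krt14, SE).

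Of the 17 integrin ligands tested in keratinocytes, 12 were positive with a median of 0.27, and of the 34 linkers 26 were positive with a median of 0.16. Lama5, a chain of laminin-511, had 345 ± 57.4 CPM in p63beta and 192 ± 25.8 CPM in p63alpha (SD, n = 3 each), its log2 fold change was 0.84 ± 0.16 (SE), and its adjusted p in edgeR was 0.289 without and 0.0431 with the replicate block, the one gene of the lists that the block called. Lamb1, another laminin chain, had a log2 fold change of 0.94 ± 0.19 (SE, adjusted p = 0.325 in edgeR). Among the linkers, Fermt1 (kindlin-1) had 434 ± 11.3 CPM in p63beta and 253 ± 77.0 CPM in p63alpha, the adaptor Nedd9 had 324 ± 56.0 and 197 ± 50.2 CPM in the same order, and Pxn (paxillin) had 187 ± 14.6 and 142 ± 12.7 CPM (SD, n = 3 each), all without overlap. Their log2 fold changes were 0.78 ± 0.21, 0.72 ± 0.22 and 0.40 ± 0.10, and that of Tln1 (talin) was 0.31 ± 0.17 (SE). DESeq2 on the same counts called Lamb3, Lamb1, Lama5, Fermt1 and Pxn among the list genes given here, and 1.63% of all its genes. The authors' deposited table called the same genes except Pxn (adjusted p = 0.0594 in their DESeq2). In the lists, 14 of 85 genes had p63beta above p63alpha without overlap and 3 the reverse, where 6.51% and 5.82% of all genes did.

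Of the other integrins 8 of 14 tested were positive (median 0.17), of the other tetraspanins and partners 2 of 8 (median -0.06), and of the other plakins 2 of 5 (median -0.23). The plakins of the cornified envelope were the clearest of these. Evpl (envoplakin) had 214 ± 27.0 CPM in p63beta and 285 ± 19.3 CPM in p63alpha keratinocytes, and Ppl (periplakin) had 324 ± 51.8 CPM in p63beta and 488 ± 96.7 CPM in p63alpha (SD, n = 3 each). Both were lower in p63beta without overlap, with log2 fold changes of -0.41 ± 0.12 and -0.59 ± 0.18 (SE) and adjusted p-values of 0.521 and 0.575 in edgeR, the opposite sign to the hemidesmosome plakins Plec and Dst.

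In epidermis 43 of the 89 list genes tested were positive with a median of -0.00, none was called, and 7 had an unadjusted p under 0.05, as 4.64% of all genes tested did. Of these, Igsf8, a tetraspanin partner, had 31.3 ± 4.58 CPM in p63beta and 20.4 ± 4.64 CPM in p63alpha (SD, n = 4 each), with a log2 fold change of 0.62 ± 0.20 (SE). Itga7, an integrin subunit known from muscle, had 0.895, 1.72, 7.05 and 2.82 CPM in EP10, EP11, EP12 and KO2 of p63beta, against 0.911, 0.289, 0.717 and 1.44 CPM in EP07, EP08, EP09 and WT3 of p63alpha, the high value being that of EP12. Lama5 and Nedd9, which had no overlap in keratinocytes, had log2 fold changes of 0.54 ± 0.24 and -0.60 ± 0.24 (SE) in epidermis. Krt14 was at 6222 ± 2983 CPM in p63beta and 3737 ± 1464 CPM in p63alpha epidermis (SD, n = 4 each), and the low value of EP12 (1768 CPM) made the p63beta spread wide.

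The genes whose pattern over the 14 libraries lay nearest the mean of the 10 members, by root mean square difference of log2 CPM centred within each system and among 12656 genes tested in both, were Slc20a2 (0.135), Parva (0.138), Pxn (0.140), Efnb1 (0.153) and Zdhhc18 (0.160). The members themselves lay 0.141 (Itga6) to 0.490 (Itga2) from their own mean, which each of them enters. Parva and Pxn were also in the list of linkers.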

How the data were processed

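Illumina TruSeq Stranded mRNA libraries were analysed from the deposited tables. The keratinocyte counts were made by the authors with featureCounts 1.5.2 (strand setting 2, minimum overlap of 25 bases), per the file headers, after STAR alignment to mm10, per the submitters' processing notes. The expected counts of the epidermis are Salmon estimates per the submitters' processing notes, deposited per transcript and gene, and were rounded to whole numbers here. FPKM (keratinocytes, over the length of all exons of a gene) and TPM (epidermis) are the authors' deposited values. The log2 fold changes and adjusted p-values of the authors' deposited tables come from DESeq2, per the submitters' processing notes. For STAR, Salmon and the authors' DESeq2, versions are not given in the sources used here, and 14 columns of normalised values per library were not used.

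Genes passing edgeR's filterByExpr were fitted per system with edgeR 4.0.16 (TMM scaling, robust quasi-likelihood fit, limma 3.58.1, R 4.3.3), with p63beta against p63alpha and Benjamini-Hochberg adjustment over all genes tested. DESeq2 1.42.0 was an alternative. The difference between systems was an interaction term over 14 libraries. Scripts were tested on simulated counts in which 100 genes were changed 2-fold and another 100 were changed 4-fold. Of those changed 2-fold, edgeR called 59 in keratinocytes, 42 in epidermis and 14 in the difference, and DESeq2 called 83, 68 and 31. Unchanged genes called were 10, 9 and 4 in edgeR, and 77, 61 and 29 in DESeq2. Shares and ratios were compared by two-sided exact permutation tests (scipy 1.17.1). Intervals are 95%. The members and all gene lists were chosen with earlier results of these data known. Of the pathway genes, those with the 2 lowest unadjusted p-values per list and system, Lama3, Lamb3, Col17a1, the keratins, Fermt1 and Tln1 were eligible to be named, and part of these is given by counts alone. An item is not reported here.

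Whether replicate numbers of the keratinocyte labels pair the libraries was examined by their deviations from the group means. Pearson's r over 12629 genes was 0.579, 0.495 and 0.161 for the same numbers, and -0.510 to 0.164 for different numbers. The lowest value for the same number, 0.161, thus lay below the highest for different numbers, 0.164. Deviations within a genotype cancel out, so these values are not independent, and they do not establish a pairing. The epidermis columns were matched to groups by name, and WT3 and KO2 share a header series with the keratinocyte libraries. Alternatives were size factors, filters, a replicate block, and each library left out.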

Additional observations from a re-analysis of the deposited data

Results flagged for a closer look

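In 64 groups of 4 epidermis libraries, 5 held a library whose gap to the nearest other one relative to the range exceeded Dixon's 95% critical value, where chance gives about 3.2. Itgb1 was at 72.0 CPM in WT3, against 176 to 185 CPM in the other 3 p63alpha libraries. Lama5 was at 107 CPM in WT3, against 189 to 196 CPM in the other 3. Krt5 was at 3375 CPM and Krt14 at 1768 CPM in EP12, against 7960 to 8780 and 7333 to 8011 CPM in the other 3 p63beta libraries. The Plec transcript NM_011117 had 22.2% of Plec TPM in EP12, against 35.6% to 37.6% in the other 3 p63beta libraries.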

How the results depend on the processing

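In keratinocytes, all log2 fold changes of the 10 genes were positive under the 15 alternatives run (149 of 150 values), except that of Itgb1 without p63alpha library 2. The count of genes called (14) was 223 in DESeq2, 37 with the replicate block, 539 in DESeq2 with the block, 585, 0 and 1 with the block and without number 1, 2 or 3, and 1 to 4 with any 1 library left out. The members called were 2, 3 and 5 in DESeq2, in DESeq2 with the block and with the block without number 1, and 0 otherwise. Their median log2 fold change ran from 0.25 (without p63beta library 3) to 0.49 (without p63alpha library 1) with 1 library left out, and was 0.50 with the block and without number 1. The genes called in epidermis (32) were 141 in DESeq2, 8 over the EP libraries and 10 to 28 with 1 library left out, and the difference between systems had 12 calls in DESeq2, against 0. In edgeR the replicate block changed no call of a named gene other than that of Lama5, and in DESeq2 it added Itga6 to the members called. For the difference, the block was added after the data were seen and gave 0 calls and a member median of -0.26. No paired analysis was possible because the epidermis columns carry no replicate number of the labels, for epidermis alone.

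Signs turned for small values. With 1 library left out, keratinocyte log2 fold changes ran from -0.26 to 0.087 for Krt5 (0.0085 with the block and without number 2) and -0.012 to 0.50 for Itgb1. In epidermis they ran from -0.40 to 0.31 for Dst, -0.16 to 0.14 for Itga2, -0.14 to 0.36 for Itga6, -0.21 to 0.16 for Itgb1, -0.19 to 0.21 for Itgb4 and -0.063 to 0.21 for Plec. Over the EP libraries they were -0.24 for Itga6, -0.13 for Itgb1, -0.21 for Itgb4, -0.045 for Itgb6, -0.13 for Plec and -0.061 for Krt5. The difference between systems ran from -0.64 to 0.080 for Dst, -0.16 to 0.19 for Itgb6, -0.068 to 0.22 for Cd151 and -0.48 to 0.042 for Itgb1. Shares of TPM differed (p63beta minus p63alpha, in percentage points) by -2.44 to 3.10 for alpha6B, with 0.989 over the EP libraries, by -3.10 to 2.44 for alpha6A, with -0.989 there, by -8.37 to 6.16 for Plec NM_201392, by -3.22 to 0.395 for Dst NM_133833 and by -0.479 to 3.67 for Dst NM_010081. Log2 differences of ratios ran from -0.013 to 0.47 for Itga6 over Itgb4 in keratinocytes and, in epidermis, from -0.023 to 0.12 for the same pair, -0.27 to 0.11 for Itga2 over Itgb1 and -0.37 to 0.0023 for Itgav over Itgb6. The cause was not tested. With 3 or 4 libraries per genotype, the widest 95% interval of a member was 2.96 on the log2 scale (Itga2 in keratinocytes). The next widest was 1.72 (Dst in epidermis). What part depth has in these widths was not tested.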
